A study of Rattus norvegicus with 30 samples.

Results

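The expression levels of 9 genes of adrenergic and muscarinic signaling were examined in rat heart. The genes were the beta-adrenergic receptors Adrb1 and Adrb3, the alpha1-adrenergic receptors Adra1a, Adra1b and Adra1d, the muscarinic receptor Chrm2, the adenylyl cyclases Adcy5 and Adcy6, and Rgs2. They were selected by gene symbol from the authors' normalized tables of the 3 ages, with every table entry of a symbol kept, which gave 10 entries in each table because Rgs2 is listed by 2 entries. The tables of 8, 21 and 78 weeks hold 27408, 27383 and 26553 entries, and the 9 genes are among 24752 gene names in all. On the arrays 14 of 41012 non-control probes belonged to these genes.

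The hearts came from untreated rats of the inbred F344 (Fischer) strain. Each age, 8 weeks (young), 21 weeks (adult) and 78 weeks (old), was represented by 5 females and 5 males, and each of the 30 rats by 1 single-color array. Sex differences were compared at the same age, as the study was designed to do, since RNA of both sexes of an age was handled together. The ages were handled in different batches, so age and batch cannot be told apart in any difference between ages given here. Each frozen heart was ground whole, and in such bulk tissue fewer cells of a type and less RNA per cell cannot be told apart.

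Noradrenaline from sympathetic nerves and circulating adrenaline act on beta-adrenergic receptors of cardiomyocytes, which couple to Gs and raise cyclic AMP through adenylyl cyclase, and so speed and strengthen the beat. Alpha1-adrenergic receptors couple to Gq and phospholipase C in cardiomyocytes and in vascular smooth muscle. Acetylcholine from the vagus acts on the M2 muscarinic receptor, which couples to Gi, slows the beat and lowers cyclic AMP.

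The 30 arrays lay on 8 slides. Each slide held both sexes, but females and males never shared a position on the slide. Sex and position on the slide thus cannot be told apart in any sex difference given here. Between 15922 and 22619 probes per array were well above background, a call of the scanner software, and 14423 were so on all 30 arrays. The 75th percentile of the signal, by which each array is scaled, ranged from 37.1 in male replicate 2 at 21 weeks to 160 in an 8-week male. The 21-week males had the lowest median of it, 66.7 against 98.3 in females of that age. At 78 weeks, female replicate 2 had the Y-linked transcripts of a male and male replicate 3 lacked them, so both went against their label. All labels were kept, and the sex differences of named members at 78 weeks are also given with these 2 arrays left out (n = 4 per sex). In that setting 3 of the 10 entries, Adra1b, Adra1d and Rgs2, had groups that did not overlap, where 6.94% of all entries did, and the exact permutation test cannot go below p = 0.0286. The median sex difference over all entries was -0.14 on the log2 scale at 21 weeks (female minus male) and -0.0043 and -0.0038 at 8 and 78 weeks. Cardiomyocyte markers were well above background on every array, whereas the markers of autonomic neurons, whose cell bodies lie mostly outside the heart, included Th, well above background on 2 of 30 arrays.

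The sequences of the receptor probes are shown first, because each value below is the signal of a short stretch of a transcript. All coordinates are those of the array design on build rn3, and sequences run 5′ to 3′. Adrb1, Adra1a and Chrm2 were each read by 1 probe of 60 bases, at chr1:263237731-263237790 (plus strand), chr15:46278703-46278762 (plus strand) and chr4:64192530-64192589 (plus strand).
Adrb1: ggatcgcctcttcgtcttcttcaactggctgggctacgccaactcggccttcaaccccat
Adra1a: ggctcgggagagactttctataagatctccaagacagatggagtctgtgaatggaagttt
Chrm2: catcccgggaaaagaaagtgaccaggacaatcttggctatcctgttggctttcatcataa

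Adra1b was read by 3 probes, which are shown because their values went in different directions with age. They lay on the minus strand of chromosome 10, at chr10:28946930-28946990 (A_44_P451026), chr10:28891147-28891206 (A_42_P586943) and chr10:28890338-28890397 (A_42_P586939, first 30 bases printed). The last pair lay 749 bases apart, and 55723 bases separated A_42_P586943 from A_44_P451026. Which exons they fall in was not analysed here.
A_44_P451026: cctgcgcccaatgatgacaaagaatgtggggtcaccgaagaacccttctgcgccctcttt
A_42_P586943: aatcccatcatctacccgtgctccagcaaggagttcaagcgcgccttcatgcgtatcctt
A_42_P586939: agttcctctattcgtatttatctgtgggta

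Of Adra1d, Adcy6 and Rgs2 the first 30 bases of each probe are printed. Adra1d, at chr3:119185632-119185691 (minus strand), is shown because it had the largest fall of the members between 8 and 78 weeks. Adcy6 had 2 probes 399 bases apart on the minus strand of chromosome 7, A_44_P107300 at chr7:137416793-137416852 and A_43_P11576 at chr7:137416369-137416393, a stretch shorter than the probe itself. Rgs2 was read by A_43_P14131 at chr13:57905038-57905097 (minus strand).
Adra1d A_42_P501233: ccaggctgccaaaggggagagccttattta
Adcy6 A_44_P107300: tggtttcgggcttgggactactttcctggg
Adcy6 A_43_P11576: ctttccctatttttcctgggactatttttg
Rgs2 A_43_P14131: tgatgtagtcttaagaaaatcagatcacat

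The second Rgs2 entry was the mean of 2 probes that the array names only by an expressed sequence tag. They lay 137 and 352 bases from the Rgs2 probe but on the plus strand, opposite to the Rgs2 gene in the RefSeq table of rat genes. They are shown because this entry carries the Rgs2 symbol while its strand does not match.
A_44_P387955, chr13:57905235-57905294: ctgacatgtttccagttactgaaatcgaac
A_44_P387950, chr13:57905450-57905509: caaacacgctttttcagtttcagtgataca

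Adrb1, Adra1b, Adra1d, Chrm2, Adcy5, Rgs2 and the A_44_P107300 probe of Adcy6 were well above background on all 30 arrays. Adrb3, the beta receptor best known from fat, was well above background on 6 of 30 arrays, and Adra1a on 14 of 30. The second Adcy6 probe was so on 21 of 30 arrays, and neither probe of the second Rgs2 entry on any array. For Adrb3, Adra1a, the second Adcy6 probe and the second Rgs2 entry no fold is given. The plot of signals by sex and age shows these levels on the log2 scale relative to the 75th percentile of the array.

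**Figure D1:**
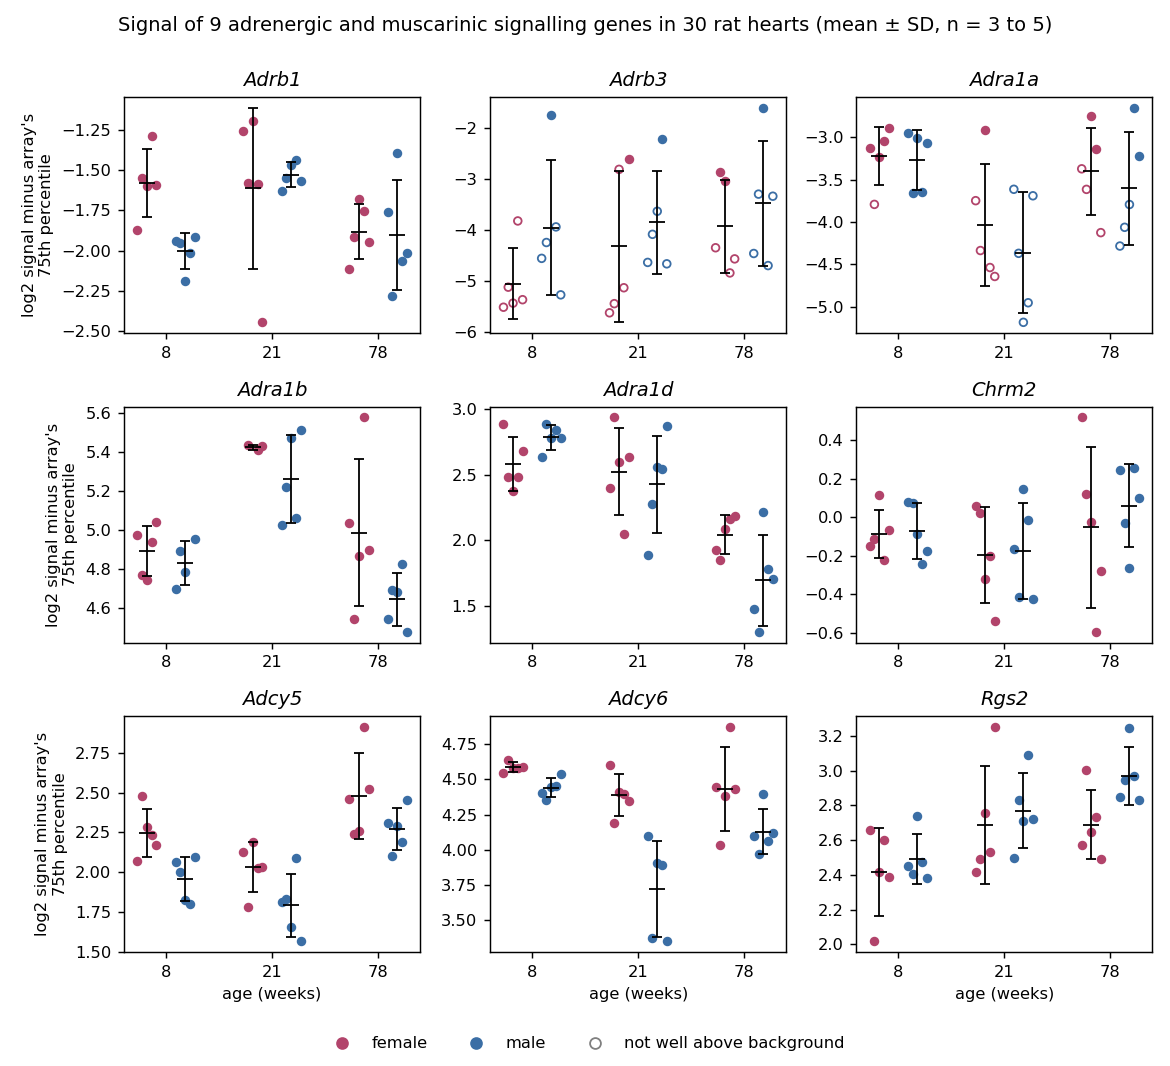
Signal of the representative probe of each gene in each rat (log2 signal minus the 75th percentile of the array) against age in weeks, females and males side by side, with the mean and SD of each group (n = 3 to 5; Adra1b is its probe A_42_P586939, with 3 spots left out). Open symbols are spots not well above background, as for most rats in Adrb3, and Adra1d is lower in every old rat than in any young rat.

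At 8 weeks, Adrb1 and Adcy5 had higher expression levels in female hearts than in age-matched males at an unadjusted p under 0.05, 2 of 10 entries. Of all 27408 entries 5.74% passed that threshold at this age and 2.21% did so with higher levels in females. At 21 weeks 0 of 10 entries passed it, where 15.9% of all entries did, and at 78 weeks 1 of 10, Rgs2, higher in males, where 5.65% did and 3.68% in that direction. After the Benjamini-Hochberg adjustment over all entries limma called 0 of the 10 at each age, against 0.102%, 0.0511% and 0% of all entries. The smallest adjusted p of the 10 was 0.501, 0.32 and 0.856 at 8, 21 and 78 weeks. With 5 rats per sex the exact permutation test cannot go below p = 0.00794.

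Adrb1 encodes the beta1 receptor, the main beta receptor of cardiomyocytes. In young females its normalized values were 0.155, 0.194, 0.189, 0.234 and 0.190, and in young males 0.153, 0.148, 0.126, 0.142 and 0.151 (ratios of the signal to the 75th percentile). Every young female lay above every young male, which held for 1 of the 10 entries and for 1.41% of all entries in either direction (0.558% with every female above). At 21 and 78 weeks 0 of the 10 entries had groups that did not overlap, where 4.05% and 0.9% of all entries did. The mean was 1.33-fold higher in females, a log2 difference of 0.41 (SE 0.11), with p = 0.00794 in the two-sided exact permutation test and a limma adjusted p of 0.501. In adults the females had 0.232, 0.188, 0.244, 0.190 and 0.103 and the males 0.185 to 0.212, a log2 difference of -0.099 (95% interval -0.59 to 0.39) that turned to 0.11 without female replicate 5. In old rats it was 0.0057 (95% interval -0.37 to 0.38), and 0.14 with the 2 arrays of doubtful label left out. The sex difference of the Adrb1 probe in adult rats minus that in young rats was -0.51 (SE 0.25, limma unadjusted p = 0.0555, adjusted p = 0.309), and that in old rats minus that in young rats was -0.40 (SE 0.25, unadjusted p = 0.123, adjusted p = 1), so neither change of the difference with age passed the threshold.

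Adrb3 was measured too close to background for a comparison of levels. Calls above background were made on 0, 1 and 2 of 5 female arrays and on 1, 1 and 1 of 5 male arrays at 8, 21 and 78 weeks. Its normalized values ranged from 0.0113 to 0.176 over the 30 rats, and in every sex and age the groups overlapped.

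Adra1a, the alpha1A receptor of cardiomyocytes and vessels, passed the background call in 4 females and 5 males at 8 weeks, 1 and 0 at 21 weeks, and 2 and 2 at 78 weeks. No sex difference is given for it, and its levels could not be ordered between the sexes where most spots were not above background.

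Adra1b encodes the alpha1B receptor, and its table entry is the mean of the 3 probes. In old females the normalized values were 0.999, 0.877, 0.967, 1.30 and 1.04, and in old males 0.878, 0.850, 0.897, 0.920 and 0.887. Of the old females 4 lay above every old male, and the remaining female was replicate 2, 1 of the arrays at odds with its label. The log2 difference was 0.21 (SE 0.11), 1.16-fold, with an exact permutation p of 0.0397 and a limma adjusted p of 0.856. Without the 2 arrays at odds it was 0.27 (limma adjusted p = 0.614). At 8 and 21 weeks the differences were 0.059 and -0.073 (limma adjusted p = 0.97 and 0.825).

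Adra1d encodes the alpha1D receptor, best known from vascular smooth muscle. Its values were 4.20, 3.18, 2.97, 3.19 and 3.66 in young females against 3.63, 4.24, 3.92, 4.10 and 3.90 in young males. In old rats the females had 2.01, 1.94, 2.28, 2.34 and 2.45 and the males 1.50, 1.34, 2.50, 1.81 and 1.79. The female mean was thus below the male mean in young rats and above it in old rats, and the sexes overlapped at both ages. The log2 differences were -0.21 (SE 0.10), 0.080 (SE 0.21) and 0.33 (SE 0.16) at 8, 21 and 78 weeks (limma adjusted p = 0.892, 0.845 and 0.856). The old male with 2.50 was replicate 3, whose label was in doubt, and without the 2 such arrays the 78-week difference was 0.50 (limma unadjusted p = 0.00649, adjusted p = 0.421). The change of the sex difference from 8 to 78 weeks was 0.55 (SE 0.25, limma unadjusted p = 0.0351, adjusted p = 1). Without those 2 arrays it was 0.72 (limma unadjusted p = 0.00721), also not past the adjusted threshold. Of all probes 2.34% passed the unadjusted threshold in that test with all arrays. The adjusted threshold was passed by 0 of 14 member probes in each such change between ages, and by 0.00244%, 0% and 0.00244% of all probes for 21 minus 8, 78 minus 8 and 78 minus 21 weeks.

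Chrm2, the M2 receptor that carries the vagal signal in atrium and pacemaker tissue, had overlapping values in both sexes at each age. Young females had 0.512, 0.527, 0.618, 0.491 and 0.546, and young males 0.619, 0.603, 0.538, 0.484 and 0.503. The log2 differences were -0.026 (95% interval -0.24 to 0.19), -0.038 (-0.42 to 0.34) and -0.13 (-0.58 to 0.32) at 8, 21 and 78 weeks. Without the 2 arrays at odds the last was -0.26 (limma adjusted p = 0.788).

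Adcy5 and Adcy6 encode the main adenylyl cyclases of cardiomyocytes. For Adcy5, young females had 2.38, 3.17, 2.78, 2.69 and 2.57 and young males 2.45, 2.30, 2.03, 2.00 and 2.43. Of the young females 4 lay above every young male, and the log2 difference was 0.28 (SE 0.10), 1.21-fold, with an exact permutation p of 0.0238 and a limma adjusted p of 0.758. The female mean was higher at the other ages as well, by 0.22 (SE 0.14) at 21 weeks and 0.19 (SE 0.14) at 78 weeks, with overlapping groups (limma adjusted p = 0.403 and 0.858). Without the 2 arrays at odds the 78-week difference was 0.25.

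The Adcy6 entry is the mean of a bright and a dim probe, and its differences were 0.058, 0.57 and 0.20 at the 3 ages (limma adjusted p = 0.97, 0.32 and 0.875). With the 2 arrays at odds left out the last was 0.29 (limma adjusted p = 0.742). The bright probe A_44_P107300 by itself separated the sexes more sharply. In adult females its log2 signal relative to the 75th percentile was 4.60, 4.19, 4.41, 4.39 and 4.35 for replicates 1 to 5, and in adult males 4.10, 3.37, 3.91, 3.89 and 3.35. Every adult female lay above every adult male, and so did every young female, with 4.53 to 4.62 against 4.33 to 4.51 when all spots entered the scaling. The difference was 0.66 (SE 0.18) in adults and 0.15 (SE 0.065) in young rats, each with p = 0.00794 in the two-sided exact permutation test, and 0.30 (SE 0.15, exact p = 0.103) in old rats. The old-rat difference with the 2 arrays at odds left out was 0.47 (SE 0.13, limma adjusted p = 0.507, n = 4 per sex), and every old female then lay above every old male, with p = 0.0286 in the exact permutation test. Groups that did not overlap were found for 5.12% of all single probes in that setting. With all arrays 3.34%, 1.15% and 0.71% of all single probes had groups that did not overlap at 21, 8 and 78 weeks. In fits of single ages limma gave adjusted p = 0.36, 0.913 and 0.934 at 21, 8 and 78 weeks, where 0.0317%, 0.0634% and 0% of all probes passed.

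In the fit over all 30 arrays, which shares 1 estimate of the spread, the 21-week difference of this probe was 0.67 (SE 0.14, limma adjusted p = 0.0127), and 4.28% of all probes passed at that age, against 0.0268% and 0.00244% at 8 and 78 weeks. The lowest adult males, replicates 5 and 2, had 75th percentiles of 66.7 and 37.1, against 60.4, 96.0 and 97.2 in the other males. The part of signal strength in this difference was not tested. The dim probe was well above background on only 1 of the 5 adult male arrays, and no difference is given for it. It enters the mean of the Adcy6 entry.

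**Figure D2:**
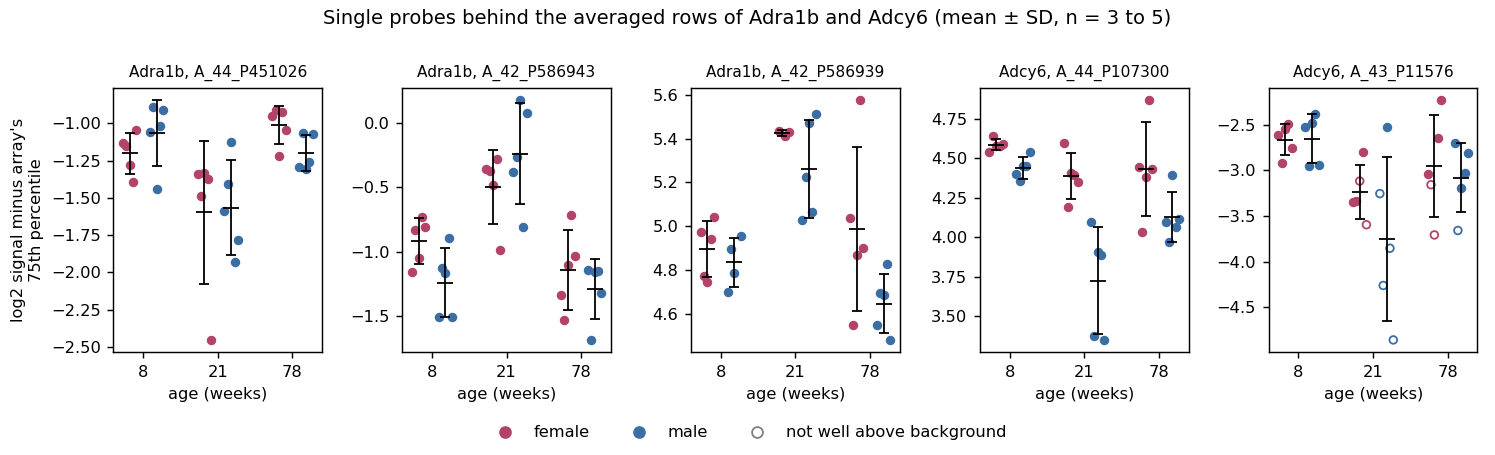
Signal of the 3 Adra1b probes and the 2 Adcy6 probes in each rat (log2 signal minus the 75th percentile of the array) against age in weeks, by sex, with mean and SD (n = 3 to 5). Every adult female lies above every adult male for Adcy6 A_44_P107300, and at 21 weeks Adra1b A_44_P451026 lies lower and A_42_P586943 and A_42_P586939 higher than at the other ages.

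Rgs2 encodes a regulator of G protein signaling that speeds the inactivation of Gq. In old females its normalized values were 3.15, 4.32, 3.36, 3.47 and 3.03, and in old males 3.87, 4.19, 5.10, 4.13 and 3.90. The female with 4.32 and the male with 5.10 were the 2 arrays at odds with their label, and every other old female lay below every old male. The log2 difference was -0.30 (SE 0.12), 1.23-fold higher in males, with an exact permutation p of 0.0397 and a limma adjusted p of 0.856. Without the 2 arrays it was -0.31 (limma adjusted p = 0.49). With any 1 rat left out it ranged from -0.38 to -0.23, and it lost the unadjusted threshold without any of female replicates 1, 3, 4 and 5 or male replicates 2, 3 and 4. At 8 and 21 weeks the differences were -0.086 and -0.098 (limma adjusted p = 0.97 and 0.78). The second Rgs2 entry lay between 0.00745 and 0.0276 in all rats, not well above background.

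**Figure D3:**
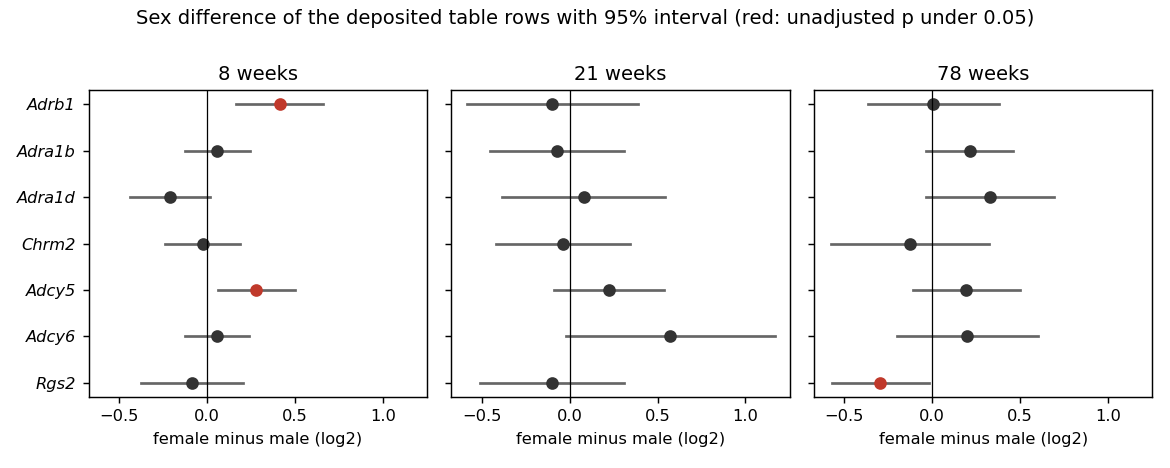
Female minus male difference of log2 normalized values with its 95% interval for 7 genes at 8, 21 and 78 weeks (n = 5 per sex; red marks an unadjusted limma p under 0.05). Adrb1 and Adcy5 at 8 weeks lie right of 0 and Rgs2 at 78 weeks left of it, and the other intervals include 0.

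Between the ages, the deposited tables cannot be set side by side because each was scaled by itself, so the scanner signals of all 30 arrays were compared in 1 fit. Between 8 and 78 weeks limma called 3 of the 14 member probes at an adjusted p under 0.05, Adra1d lower and Rgs2 and Adcy5 higher in old rats, where 10.9% of all probes passed. Between 8 and 21 weeks it called 8 of 14, among them Adra1a, the dim Adcy6 probe and 1 probe of the second Rgs2 entry, which were not well above background on most arrays at 21 weeks, where 57.3% of all probes did, and between 21 and 78 weeks 7 of 14, Adra1a included, where 33% did. The median difference over all probes was 0.29, 0.12 and -0.19 for 21 minus 8, 78 minus 8 and 78 minus 21 weeks. Age and batch cannot be told apart in any of these values. Under the normexp background correction the counts fell to 1, 1 and 0 of 14, with Adra1d the 1 still called between 8 and 78 weeks, and the shares of all probes to 2.18%, 0.888% and 0.739%.

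Adra1d had the lowest levels in old hearts. Its log2 signal was 2.89, 2.48, 2.38, 2.48 and 2.68 in young females and 2.63, 2.89, 2.77, 2.84 and 2.78 in young males, replicates 1 to 5. In old females it was 1.93, 1.85, 2.08, 2.16 and 2.18 and in old males 1.48, 1.31, 2.22, 1.78 and 1.71. All 10 old rats lay below all 10 young rats, which 1.13% of all probes showed. The difference was -0.81 (SE 0.11, limma adjusted p = 1.63e-05), 1.75-fold lower at 78 weeks, and in size it exceeded that of 97.6% of all probes.

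In old males the difference of Adra1d from young males was -1.08 (SE 0.17, limma adjusted p = 0.000148), and in females it was -0.53 (SE 0.17, adjusted p = 0.0998), where 3.93% and 2.49% of all probes passed. On the slide that held both ages it was -0.75 in the pair of females and -1.30 in the pair of males. Within the arrays of the first scan day it was -0.87 (limma adjusted p = 0.000348), under normexp -1.04 (adjusted p = 0.0214), and with any single rat left out between -0.87 and -0.76. Against adult rats it was -0.60 (limma adjusted p = 0.000142), and -0.52 (adjusted p = 0.13) within the arrays of the second scan day and -0.55 (adjusted p = 0.608) under normexp.

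The summed signal of the 4 smooth muscle and pericyte markers that had a probe, relative to the 75th percentile, was 26.1 to 35.6 at 8 weeks, 18.3 to 29.6 at 21 weeks and 25.7 to 48.6 at 78 weeks. Of these, Myh11 was higher by 0.45 and Tagln by 0.32 at 78 than at 8 weeks, not past the adjusted threshold (limma adjusted p = 0.0718 and 0.11). Pdgfrb fell by 0.35 (adjusted p = 0.00518). The median difference of the 4 markers, Cnn1 included, was 0.32, beside 0.12 over all probes. The part of these cells in the Adra1d level was not tested.

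**Figure D4:**
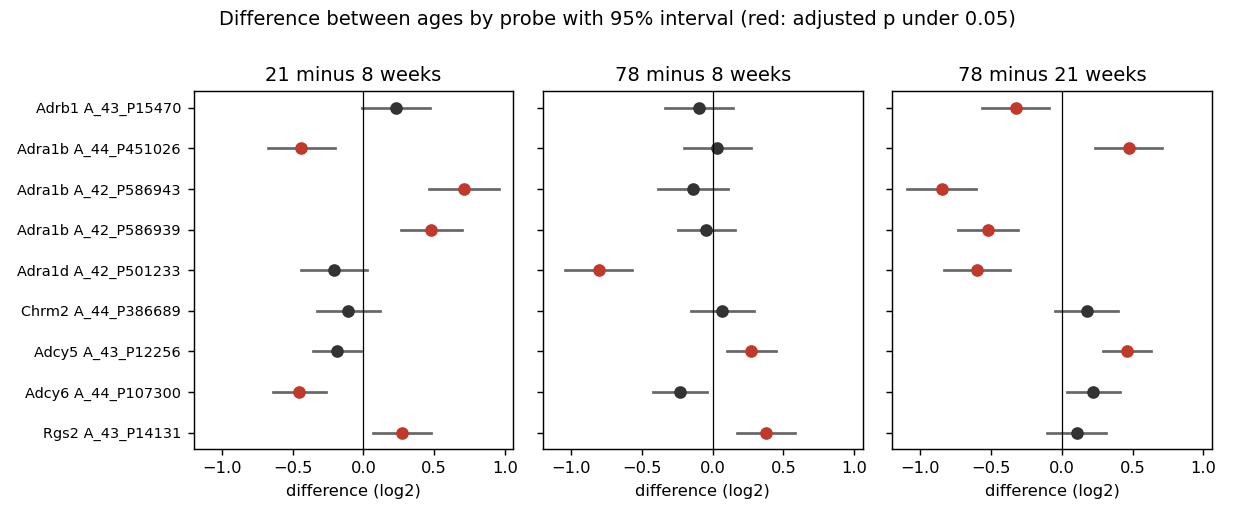
Difference between ages for each member probe other than those of Adrb3, Adra1a, the dim Adcy6 probe and the second Rgs2 entry (log2, mean over sexes) with its 95% interval in the fit over 30 arrays (red marks a limma adjusted p under 0.05). Adra1d falls by 0.81 between 8 and 78 weeks, and the 3 Adra1b probes take opposite directions between 8 and 21 weeks; age and batch cannot be told apart.

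Rgs2 was higher in old than in young hearts. Its log2 signal ranged from 2.02 to 2.74 (median 2.43) in the 10 young rats, from 2.42 to 3.25 (median 2.72) in the adults and from 2.49 to 3.25 (median 2.84) in the old, with 6 of 10 old rats above every young rat. The difference of 0.38 (SE 0.10) had a limma adjusted p of 0.0138. Without the 2 arrays at odds it was 0.30 (adjusted p = 0.0673), and under normexp it turned to -0.092. Between 8 and 21 weeks Rgs2 rose by 0.27 (limma adjusted p = 0.0228), beside a median of 0.29 over all probes, and under normexp this difference reversed. The call was lost without female replicate 2 at 8 weeks (adjusted p = 0.0594) or without female replicate 5 (0.0532) or male replicate 4 (0.055) at 21 weeks.

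Adcy5 ranged from 1.80 to 2.48 (median 2.08) at 8 weeks, from 1.57 to 2.19 (median 1.93) at 21 weeks and from 2.10 to 2.91 (median 2.30) at 78 weeks. Of the old rats 8 lay above every adult rat and 2 above every young rat. The difference between 21 and 78 weeks was 0.46 (SE 0.083, limma adjusted p = 7.72e-05), present in females (0.45) and in males (0.48). Between 8 and 78 weeks it was 0.27 (SE 0.084, adjusted p = 0.0337), and this call was lost in 9 of 20 settings that left out a rat (female replicates 1, 4 and 5 and male replicates 3 and 4 at 8 weeks, female replicates 4 and 5 and male replicates 1 and 5 at 78 weeks), with adjusted p between 0.0203 and 0.0746 over all 20. Under normexp it was -0.16 between 8 and 78 weeks and 0.32 (adjusted p = 1) between 21 and 78 weeks.

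The bright Adcy6 probe was lower in adult than in young hearts, with 4.36 to 4.64 (median 4.54) at 8 weeks, 3.35 to 4.60 (median 4.14) at 21 weeks and 3.97 to 4.87 (median 4.25) at 78 weeks. The difference of -0.45 (SE 0.092, limma adjusted p = 0.00029) was -0.71 in males and -0.19 in females, with adjusted p of 0.000211 and 0.441, where 53.3% and 7.53% of all probes passed. The change of the sex difference from 8 to 21 weeks was 0.52 (SE 0.20, limma unadjusted p = 0.0141, adjusted p = 0.293), and 16.5% of all probes passed the unadjusted threshold in that test. Under normexp the difference between 8 and 21 weeks was -0.91 with an adjusted p of 0.1. The dim probe was well above background on 10 of 10 arrays at 8 weeks and on 4 of 10 at 21 weeks, and no fold is given.

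The 3 Adra1b probes shown above did not move together. Between 8 and 21 weeks A_42_P586943 rose by 0.71 (SE 0.12, limma adjusted p = 3.92e-05) and A_42_P586939 by 0.48 (SE 0.11, adjusted p = 0.000801), whereas A_44_P451026 fell by 0.44 (SE 0.12, adjusted p = 0.00266). Between 21 and 78 weeks the same probes differed by -0.85, -0.52 and 0.47, each past the adjusted threshold. The nearby pair on the chromosome thus went 1 way and the distant probe the other. Between 8 and 78 weeks the differences were -0.14, -0.044 and 0.033, with adjusted p of 0.439, 0.791 and 0.871. For A_42_P586939 the spots of female replicates 1 and 3 at 21 weeks and of male replicate 4 at 8 weeks carried an outlier call and were left out. Under normexp the 21 minus 8 week differences were 0.44, -0.039 and -0.0082 in place of 0.71, 0.48 and -0.44, and within the second scan day none of the 78 minus 21 week differences passed (adjusted p = 0.0584, 0.212 and 0.182).

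Adrb1 ranged from -2.19 to -1.29 at 8 weeks, -2.44 to -1.19 at 21 weeks and -2.28 to -1.39 at 78 weeks. Of the 3 steps, that from 21 to 78 weeks passed the threshold, with -0.33 (SE 0.12, limma adjusted p = 0.0313). That call was lost without the slide as a block (adjusted p = 0.0509), within the second scan day (0.285), under normexp, and when any of 8 rats was left out (female replicates 1 and 3 and male replicate 4 at 21 weeks, female replicates 1 and 5 and male replicates 2, 4 and 5 at 78 weeks, adjusted p up to 0.0777). The step from 8 to 21 weeks was 0.23 (adjusted p = 0.0939), and passed without female replicate 5 at 21 weeks (0.00509) and under quantile normalization (0.0493). Chrm2 passed the threshold in none of the 3 steps, with differences of -0.11, 0.069 and 0.18 (limma adjusted p = 0.399, 0.698 and 0.199). For Adra1a the spots well above background went from 9 of 10 at 8 weeks to 1 at 21 and 4 at 78 weeks, and no fold is given.

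The other genes of the pathway were taken from a list of 100 genes (receptors, G proteins, cyclases, phosphodiesterases, protein kinase A, receptor kinases and arrestins, RGS proteins, effectors and transmitter handling). At an unadjusted p under 0.05, 0 of the 89 measured at 8 weeks had higher levels in females and 5 in males, beside 2.21% and 3.52% of all entries. At 21 weeks these were 6 and 8 of 90, beside 6.19% and 9.67%, and at 78 weeks 1 and 5 of 89, beside 1.98% and 3.68%. Limma called 0 of them at the adjusted threshold at any age. The median difference of the list was -0.041, -0.042 and -0.055 at the 3 ages, beside -0.0043, -0.14 and -0.0038 over all entries. By unadjusted p the leading genes at 8 weeks were Adra2a, the presynaptic alpha2A receptor, Gnao1, a G protein alpha subunit (-0.22), and Rgs1, with Adra2a and Rgs1 near background and given without a value. At 21 weeks they were Maoa, which breaks down catecholamines (-0.96, SE 0.15, limma adjusted p = 0.0869), the cyclase Adcy2 (0.85, SE 0.15, adjusted p = 0.139) and the soluble cyclase Adcy10 (-0.97, adjusted p = 0.258). At 78 weeks they were the arrestin Arrb2 (-0.47), the vesicular transporter Slc18a2, on no array well above background in all its probes, and the ryanodine receptor Ryr2 (0.27), each with limma adjusted p = 0.856. Of the 89 genes, without the 2 arrays at odds, 20 passed the unadjusted threshold at 78 weeks, where 8.4% of all entries did. The genes named and the split by direction given for 78 weeks are those with all labels kept.

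Between ages 97 genes of the list had a probe, and 25 were called higher and 22 lower at 21 than at 8 weeks, 5 higher and 14 lower at 78 than at 8 weeks, and 20 higher and 26 lower at 78 than at 21 weeks, with age and batch not told apart. The shares of all probes called higher and lower were 42.2% and 15.1%, 5.66% and 5.21%, and 13.6% and 19.4%. Between 8 and 78 weeks the regulators of G protein signaling Rgs4 (-0.81, SE 0.080, limma adjusted p = 5.82e-08) and Rgs6 (-0.51, adjusted p = 0.00394) fell, and 4 of 12 RGS genes of the list, beside Rgs2, were called lower and 0 higher. Of the 6 receptor kinases and arrestins 3 were called lower and 0 higher. Maoa had the largest difference of the list, 2.53 (SE 0.11, adjusted p = 2.41e-15). The pacemaker channel Hcn4 rose by 0.93 (adjusted p = 0.00445), with 8, 4 and 10 of 10 arrays well above background at 8, 21 and 78 weeks, and the cyclic AMP sensor Rapgef4 by 0.49, whereas Gnb4 (-0.52), Ddc (-0.50), Adcy2 (-0.43) and Pde2a (-0.42) fell. The vesicular amine transporter Slc18a1 was also called lower at 21 and at 78 than at 8 weeks, but it was well above background on 10 of 10 arrays at 8 weeks and on 1 of 10 at each later age, so no fold is given. Adcy9, a further adenylyl cyclase, was -2.41 at 21 against 8 weeks and 2.95 at 78 against 21 weeks. Kcnj3, a subunit of the channel opened by the M2 receptor, had -1.18 and 1.24 in these steps, and the same pattern of lower adult levels was seen in Akap5 (-1.15 and 1.23), Ryr2 (-0.99 and 1.17) and the phosphodiesterases Pde3a (-0.95 and 1.13) and Pde1a (-0.84 and 0.76). At 21 weeks Adcy9, Akap5 and Pde3a were well above background on 8, 9 and 7 of 10 arrays. The other leading differences between 8 and 21 weeks were 1.29 for Maoa and those of the noradrenaline transporter Slc6a2 and of Prkar1b, which were above background on 0 and 1 of 30 arrays and are given without a value. Those between 21 and 78 weeks were 1.33 for Hcn4, 1.24 for Maoa, -0.87 for phospholamban (Pln) and that of Th, which was above background on 2 of 30 arrays.

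The genes whose levels followed each member most closely over the 30 rats, after the mean of each sex and age was removed, were ranked by Pearson correlation as a description. The ranking was among 7443 probes of named genes. All rats share the array platform and the scaling by the 75th percentile. For Adra1d they were Agpat3, Ppcs and Inha (r = 0.82, 0.82 and 0.80), and for Adcy6 A_44_P107300 Dip2a and Sspn (0.91 and 0.85). For Chrm2 they were Itgb1, Hdac1 and Ide (0.82, 0.78 and 0.77), and for Rgs2 Alg8, Nr1h3 and Sncg (0.80, 0.78 and 0.77). Those of Adcy5 were RGD1562992, Kcnj12 and Ncoa2 (0.73, 0.67 and 0.67), and those of Adrb1 Epdr1, Hspd1-ps2 and the phosphodiesterase Pde2a (0.67, 0.66 and 0.66). The 2 Adra1b probes ranked differed in their nearest genes, Thra, Cuedc1 and Scmh1 for A_44_P451026 (0.72, 0.71 and 0.70) and Gypc, Rab5b and Art3 for A_42_P586943 (0.77, 0.76 and 0.75), and correlated with each other at 0.37. Adcy5 and Adcy6 A_44_P107300 correlated at 0.59.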

How the data were processed

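Single-color Agilent arrays of 30 rat hearts were analysed. The deposited tables of each age hold linear intensity values scaled by the authors to the 75th percentile of each array. The deposited scanner files hold processed signal intensity and other calls (well above background, outlier) from Agilent Feature Extraction, per the labels. Each entry was matched by its values to the nearest of all single probes and all geometric means over the probes of a name, in processed signal. A match within 0.002 on the log2 scale was found for 98.53%, 98.54% and 98.48% of entries at 8, 21 and 78 weeks. At 8 weeks 24508 entries matched a single probe and 2497 a mean. The matches used 10, 5 and 10 arrays, since 5 male columns at 21 weeks name only their group. Sex was tested within each age on log2 values with limma 3.58.1 in R 4.3.3 (Benjamini-Hochberg over all entries, threshold 0.05) and with a two-sided exact permutation test for single values. Age was fitted on log2 processed signals minus the 75th percentile of each array, outlier spots left out, with slide as a random block (correlation -0.04). The age fit is an addition, as the study's own analysis left age out because of batches. The p-values set each difference against the spread between rats, and the number of arrays limits the precision. Those between ages do not take in variation between batches. Without the slide block 8.89% of all probes were called between 8 and 78 weeks, against 10.9% with it. Well-above-background calls were used as given, and levels of different probes were not compared. Alternatives were normexp (offset 50), the median signal without background subtraction, quantile normalization, filters on dim probes, slide and replicate blocks, the methods' two-group test, and leaving out single rats. Tests of single probes within an age, and 21-week values rebuilt from the scanner files, were added after seeing the data, as were single-probe tests and overlaps at 78 weeks without the 2 arrays at odds. The scripts were tested on simulated data.

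The members and gene lists were chosen with earlier results of these data known. Named pathway genes were, per comparison, the 10 largest differences at an adjusted p under 0.05 or, with none, the 3 smallest unadjusted p; for likeness the 3 highest correlations within groups were named, with 1 gene not reported here. Figures were drawn with matplotlib 3.10.9. Coordinates are those of the scanner files on build rn3, gene strands came from RefSeq for 6 of 9 members, and exons were not analysed here.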

Additional observations from a re-analysis of the deposited data

Results flagged for a closer look

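In 3 of 60 groups of 5 rats, 1 rat lay far from the other 4 by Dixon's test for outliers, and chance gives this in about 1 in 20 groups. Adra1b had its lowest value in adult females at 0.884, against 1.26 to 1.36 in the other 4. Adrb3 had its highest value in young females at 0.0404, against 0.0125 to 0.0164, on arrays where it was not well above background. Rgs2 had its highest value in old males at 5.10, against 3.87 to 4.19, on the array of male replicate 3, which was at odds with its label.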

How the results depend on the processing

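The sex differences of 7 genes kept their direction under quantile normalization, the dim-probe filters, the slide block, the methods' two-group test and the values rebuilt from the scanner files. Under normexp those of Rgs2 at 21 weeks (0.34), Adcy5 at 78 weeks (-0.071) and Chrm2 at 78 weeks (0.043) reversed, and with the median signal those of Rgs2 at 21 weeks (0.083), Adrb1 at 78 weeks (-0.040) and Chrm2 at 78 weeks (0.024). Age differences reversed under normexp for 21 minus 8 weeks in Adra1b A_42_P586939 (-0.039) and Rgs2 (-0.12), and for 78 minus 8 weeks in Adcy5 (-0.16), Adra1b A_42_P586943 (0.10), Adrb1 (0.22) and Rgs2 (-0.092). With the median signal they reversed for 78 minus 8 weeks in Adra1b A_42_P586943 (0.0064), Adrb1 (0.027) and Chrm2 (-0.00085). For 78 minus 8 weeks, Adra1b A_44_P451026 reversed under quantile normalization (-0.012) and on the slide of both ages (-0.15), and A_42_P586939 without the arrays at odds (0.015). The cause was not tested.

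Counts moved as follows. Under normexp, the member entries at an unadjusted p under 0.05 were 1 at 8 and 0 at 78 weeks, the pathway genes 0, 6 and 0 at 8, 21 and 78 weeks, the member probes at an adjusted p under 0.05 for 21 minus 8, 78 minus 8 and 78 minus 21 weeks 1, 1 and 0, and the pathway genes 6, 2 and 1. Of all entries 1.66%, 2.91% and 0.229% passed there at 8, 21 and 78 weeks, and of all probes 2.18%, 0.888% and 0.739%. With the median signal 0 pathway genes passed at 8 weeks, beside 2.08% of all entries. With only entries well above background 3 passed at 8 weeks, and 2 at 21 weeks after adjustment, over fewer entries, beside 7.56% and 0.269%. With the first entry of each name 3 passed at 8 and at 78 weeks, and 0 member entries at 78 weeks, beside 5.51% and 5.58% of all entries. Quantile normalization and the slide block each gave 1 member entry at 21 weeks, beside 15.7% and 15.8% of all entries. The methods' two-group test gave 3 pathway genes at 78 weeks, beside 5.83%. Without the arrays at odds 2 member entries and 20 pathway genes passed at 78 weeks, beside 8.4% of all entries. Within the second scan day 1 member probe and 13 pathway genes were called for 78 minus 21 weeks, beside 5.3% of all probes (33% over all arrays).

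Rats of the same age and replicate number shared a slide, and the labels do not pair them. Deviations of same-numbered rats correlated at -0.08 to 0.14, -0.13 to 0.31 and 0.06 to 0.22 at 8, 21 and 78 weeks, over 0.1 in 1, 2 and 4 of 5 pairs, and 1, 2 and 4 of 5 correlated best with their own number, a hint from the data at 78 weeks. Since not every pair was over 0.1, the rats were not treated as paired. With the replicate block 1 member entry passed at 21 weeks, 2 at 78 weeks and 2 pathway genes at 8 weeks, and no member entry passed the adjusted threshold. Of all entries 18.3%, 6.77% and 5.32% passed the unadjusted threshold there at 21, 78 and 8 weeks.

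With any single rat left out, the sex differences ranged from -0.076 to 0.019 (Chrm2) and -0.15 to 0.015 (Rgs2) at 8 weeks, from -0.16 to 0.039 (Adra1b), -0.050 to 0.20 (Adra1d), -0.20 to 0.11 (Adrb1) and -0.11 to 0.051 (Chrm2) at 21 weeks, and from -0.086 to 0.13 (Adrb1) and -0.27 to 0.015 (Chrm2) at 78 weeks. Those of 78 minus 8 weeks ranged from -0.017 to 0.060 (Adra1b A_44_P451026) and -0.12 to 0.014 (A_42_P586939). Member entries at an unadjusted p under 0.05 were 2 to 3, 0 to 1 and 0 to 2 at the 3 ages and pathway genes 1 to 6, 9 to 18 and 2 to 13. The shares of all entries were 4.84% to 6.65%, 9.69% to 24.9% and 4.39% to 8.01%. Member probes called were 7 to 9, 2 to 3 and 6 to 9 for 21 minus 8, 78 minus 8 and 78 minus 21 weeks. The shares of all probes were 51% to 61.3%, 8.63% to 13.1% and 30% to 43.8%. Signal over background limits Adrb3, Adra1a, the dim Adcy6 probe and the second Rgs2 entry.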
